A study of Mus musculus with 8 samples.

Results

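The airway secretory genes described here are 10 genes that mark club cells, goblet cells and other secretory cells of the conducting airway: Scgb1a1, Scgb3a1, Scgb3a2, Cyp2f2, Bpifa1, Bpifb1, Muc5b, Muc5ac, Reg3g and Agr2. They were taken by name, and each matched 1 of the 52636 Ensembl gene identifiers of the count files through the GENCODE M21 annotation of the mouse genome GRCm38, in which 52489 identifiers were found. All 10 passed the filter on low counts, among 20546 genes tested. RNA came from lungs of wild type mice, with 2 libraries in each of 4 groups. The control arm was given PBS, and the COPD mice model, called PPE/LPS mice here, was given porcine pancreatic elastase (PPE) followed by lipopolysaccharide (LPS). In each of these arms mice ate either the control diet or a diet with 2% TJ-41, the herbal medicine hochuekkito, from 8 weeks of age, with PPE or PBS given at 10 weeks and LPS or PBS from 12 weeks. The labels do not say whether the 2 libraries of a group came from separate mice, so the p-values below measure only the spread between these libraries, which may be technical.

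Club cells line the small airways of the mouse and secrete secretoglobins, small proteins that coat the airway surface, and they carry cytochrome P450 enzymes that oxidize inhaled compounds. Goblet cells release the gel-forming mucins that trap particles for the cilia to carry out. Club cells can turn into mucous cells under allergic or microbial stimulation, and the same epithelium releases proteins that bind or kill bacteria, among them the BPI fold proteins and the lectins of the Reg3 family.

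The libraries held 18767295 to 20888042 counts on genes. Levels are given as CPM, counts scaled to the effective library size with the TMM factors of edgeR. A count of 0 allows a true level of up to 3 counts, or 0.153 to 0.162 CPM, which covers counting error only. The second library of PPE/LPS mice on the control diet stood apart: the SD over genes of the log2 difference between it and its replicate was 0.798, against 0.394 to 0.469 in the other 3 groups. Its genes also differed from those of its replicate by their length, with a median log2 difference, over genes with a mean log2 CPM above 0, of 0.25 under 1 kb of exons, 0.30 at 1 to 2 kb, 0.17 at 2 to 5 kb and -0.19 over 5 kb. Values of members that moved by over 1.5 times without this library are given both ways. Log2 fold changes are given with their standard error (SE). Calls needed a log2 fold change beyond 1 and an adjusted p under 0.05 in the quasi-likelihood F-test of edgeR, adjusted by the Benjamini-Hochberg method over all genes tested.

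The members differed widely in level. Scgb1a1, the club cell secretory protein, alone took 1.18% to 2.70% of all counts of a library and was the gene with the most counts in 7 of the 8 libraries. Per kilobase of exon, the mean over the libraries was 38152 CPM per kb for Scgb1a1, 944 for Cyp2f2, 524 for Scgb3a2 and 152 for Scgb3a1. These 4 genes kept these places in all 8 libraries. Bpifa1 followed with 31.2 CPM per kb, Reg3g with 9.18, Bpifb1 with 8.17 and Muc5b with 4.61. The middle places were not separated by the spread between libraries, since Bpifa1, Reg3g, Bpifb1 and Muc5b changed order from one library to another. Agr2 at 0.782 CPM per kb and Muc5ac at 0.292 CPM per kb were the lowest, and Muc5ac was last in every library. Muc5ac had 3 to 116 counts per library and Agr2 had 9 to 51, while Muc5b, a longer transcript, had 178 to 1797.

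**Figure D1:**
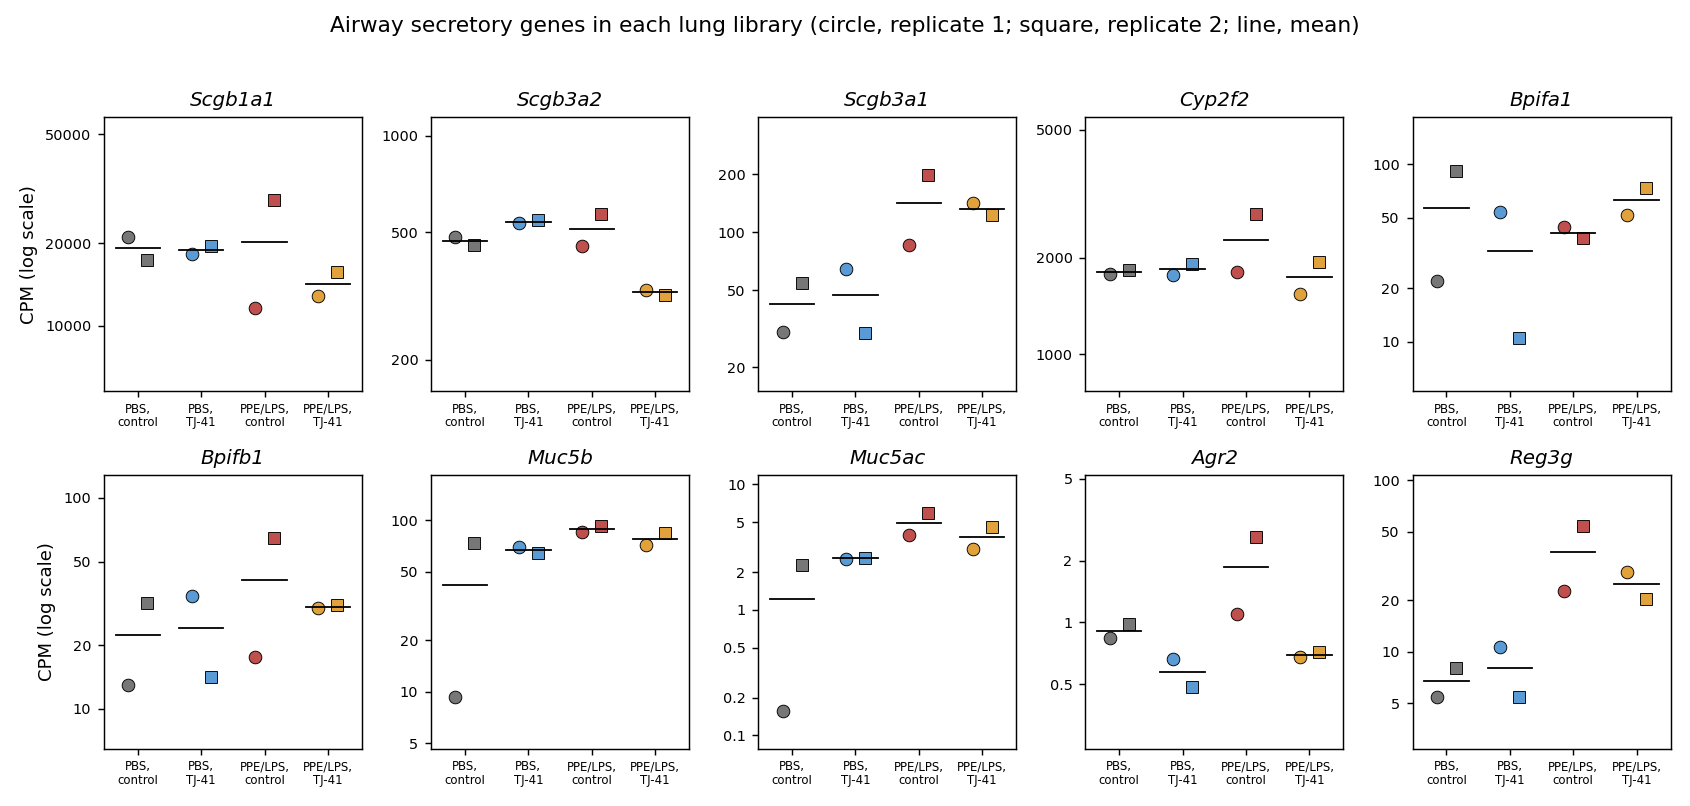
CPM of each of the 10 genes in each library on a log axis, with circles for the first and squares for the second library of a group and a line at the group mean. Scgb3a1, Muc5ac and Reg3g are the genes whose 4 PPE/LPS libraries all lie above the 4 PBS libraries, and for most genes the square of the PPE/LPS control diet group lies highest.

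The first comparison asked which of these genes differed between PPE/LPS mice and PBS-treated mice. Reg3g was higher in PPE/LPS mice, 4.16-fold over both diets, and was the 1 member called. Scgb3a1 was 3.05-fold higher with an adjusted p above the threshold, and the abundant club cell genes Scgb1a1, Scgb3a2 and Cyp2f2 had log2 fold changes of -0.17, -0.30 and 0.13. Over both diets 8 of the 10 members were higher and 2 were lower, with a median log2 fold change of 0.62, against -0.002 over all genes tested. That median was 0.28, with 6 members higher, without the library that stood apart, and 0.30 and 0.96 without the first and the second PBS library on the control diet. The share of all genes called in this averaged comparison was 0.443%, or 91 genes. On the control diet alone 0 members were called, against 0.122% of all genes, and on the TJ-41 diet alone 0 members were called, against 0.0779%. In each of these single-diet comparisons 3 members had an unadjusted p under 0.05 in edgeR's test, beside 1582 of all genes on the control diet and 1347 on the TJ-41 diet. DESeq2 called Reg3g and Scgb3a1 in each, among 174 and 125 genes. The single-diet comparisons share no libraries with each other but both enter the averaged one. In bulk lung, fewer cells of a type and less RNA per cell cannot be told apart.

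Reg3g encodes a secreted C-type lectin that binds bacterial peptidoglycan and kills Gram-positive bacteria. The gene (ENSMUSG00000030017) lies on chromosome 6 of GRCm38 from 78466269 to 78468872 on the minus strand. Its level was 5.44 and 8.0 CPM in PBS-treated mice on the control diet and 10.7 and 5.46 CPM on the TJ-41 diet. PPE/LPS mice had 22.5 and 53.7 CPM on the control diet and 29.2 and 20.3 CPM on the TJ-41 diet. The lowest PPE/LPS library, at 20.3 CPM, was thus above the highest PBS library, at 10.7 CPM, and the groups did not overlap on either diet. The mean was 7.40 ± 2.51 CPM (SD, n = 4 libraries) in PBS-treated mice and 31.4 ± 15.4 CPM (SD, n = 4) in PPE/LPS mice. Averaged over diets, the log2 fold change was 2.06 (SE 0.32, adjusted p = 0.0342 from edgeR). It was 2.50 on the control diet (SE 0.46, adjusted p = 0.137, same test) and 1.61 on the TJ-41 diet (SE 0.45, adjusted p = 0.513, same test). Without the library that stood apart the averaged value was 1.68 (adjusted p = 0.0046 from edgeR), and the call was kept.

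The call of Reg3g depended on single libraries. Leaving out either library of the PBS-treated mice on the control diet gave adjusted p values of 0.232 and 0.165, and leaving out either on the TJ-41 diet gave 0.105 and 0.210 (edgeR). Leaving out the first library of the TJ-41-fed PPE/LPS mice gave 0.118. With the replicate number as a block the adjusted p was 0.0750, with a log2 fold change of 2.05. In each of these fits the log2 fold change stayed between 1.85 and 2.34.

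Scgb3a1 encodes a secretoglobin that is secreted mainly by cells of the larger airways. The gene (ENSMUSG00000064057) lies on chromosome 11 of GRCm38 from 49663610 to 49665118 on the plus strand. It had 30.2 and 54.5 CPM in PBS-treated mice on the control diet and 64.8 and 30.1 CPM on the TJ-41 diet. In mice given PPE and LPS it had 86.0 and 198 CPM on the control diet and 142 and 122 CPM on the TJ-41 diet. Again no PPE/LPS library fell to the level of a PBS library. The averaged log2 fold change was 1.61 (SE 0.33), with an adjusted p of 0.0893 from edgeR that missed the threshold. Of 15 alternative fits 4 called the gene, among them DESeq2 (adjusted p = 6.4e-06), and the rest did not. With single libraries left out, the log2 fold change ran from 1.25 to 1.94. The lowest value came without the second PPE/LPS library on the control diet, and the highest without the first PBS library on the TJ-41 diet.

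Reg3g and Scgb3a1 had the same libraries at both ends of their range, with the first PBS library on the control diet and the second on the TJ-41 diet lowest and the second PPE/LPS library on the control diet highest. Their promoter windows, from 250 bases before to 50 after the RefSeq start site, are shown because these were the 2 genes with the largest averaged differences that edgeR or DESeq2 called. The capitals mark motif matches found on either strand: the TATA box (TATAAA), the core of the site of NKX2-1, a lung epithelial factor (CTTGAG), a STAT site (TTCNNNGAA) and an NF-kB site (GGGNNTTCC). No match overlaps another, and a match on the opposite strand appears as its reverse complement. RefSeq windows of GRCm38.p6 are written from 5′ to 3′ on the strand of the gene.
Reg3g, chr6:78468825-78469124, minus strand: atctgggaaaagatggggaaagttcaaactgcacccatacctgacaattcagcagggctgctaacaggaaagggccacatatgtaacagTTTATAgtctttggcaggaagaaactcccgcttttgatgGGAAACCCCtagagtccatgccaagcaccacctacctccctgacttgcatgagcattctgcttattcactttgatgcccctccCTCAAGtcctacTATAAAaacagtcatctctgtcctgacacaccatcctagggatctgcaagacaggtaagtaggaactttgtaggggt
Scgb3a1, chr11:49663345-49663644, plus strand: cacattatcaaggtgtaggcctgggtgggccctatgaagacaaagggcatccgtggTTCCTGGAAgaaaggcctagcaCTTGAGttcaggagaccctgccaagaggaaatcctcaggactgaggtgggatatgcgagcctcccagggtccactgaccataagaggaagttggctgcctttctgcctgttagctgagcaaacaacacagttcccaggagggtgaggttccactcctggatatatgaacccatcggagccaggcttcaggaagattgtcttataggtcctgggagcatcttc
Counted from the start site, the Reg3g window had a TATA box match at position -27 and another, on the opposite strand, at -161. It also held an NF-kB match at -122 and an NKX2-1 core match at -39. The Scgb3a1 window held a STAT match at -194 and an NKX2-1 core match at -172, and neither a TATA box nor an NF-kB match. Over the 32851 mouse promoter windows of this length, 13.6% held the TATA box, 15.9% the NKX2-1 core, 8.30% the STAT motif and 5.82% the NF-kB motif. A forkhead motif (TGTTTAC), found in 3.65% of windows, was in neither. Among the other members whose windows were scanned, Bpifa1 held a TATA box match at -29 and NKX2-1 core matches at -213 and 36. Cyp2f2 held an NF-kB match at -203, the second of the 2 windows of Bpifb1 held a STAT match at -146, and Agr2 held none. No window was scanned for Scgb1a1, Scgb3a2, Muc5b and Muc5ac, so whether their promoters hold these motifs was not tested. These matches are letters in a window, and no binding was measured.

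The 3 abundant club cell genes were not called in PPE/LPS mice, and their libraries overlapped between the arms. Scgb1a1 had 21152 and 17333 CPM in PBS-treated mice on the control diet and 18346 and 19496 CPM on the TJ-41 diet. After PPE and LPS the values were 11580 and 28870 CPM on the control diet and 12824 and 15683 CPM on the TJ-41 diet. The PBS libraries were close together, and 3 of the 4 PPE/LPS libraries were below all of them while the fourth was above all of them. The averaged log2 fold change was -0.17 (SE 0.27, 95% confidence interval -0.77 to 0.43). Without the library that stood apart it was -0.56 (adjusted p = 0.111 from edgeR), and without its replicate it was 0.09 (adjusted p = 0.701). The difference for Scgb1a1 on the control diet likewise went from 0.07 to -0.73 without the second library and to 0.58 without the first.

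Cyp2f2 encodes the P450 enzyme that activates naphthalene in mouse club cells. It ranged from 1764 to 1909 CPM in the 4 PBS libraries and from 1536 to 2737 CPM in the PPE/LPS libraries, so the second range enclosed the first. Its averaged log2 fold change was 0.13 (SE 0.17, 95% confidence interval -0.25 to 0.50), and -0.03 without the library that stood apart. The gene overlaps an antisense gene, Gm15883, with which it shares 9.0% of its 50-base sequences. Since the strand setting of the counting is not given, reads of the pair cannot be told apart, but the antisense gene held 2839 counts over all libraries against 294233 for Cyp2f2.

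Scgb3a2, a secretoglobin of small airway cells that appears early in lung development, had 483 and 456 CPM in PBS-treated mice on the control diet and 533 and 545 CPM on the TJ-41 diet. In PPE/LPS mice it had 452 and 571 CPM on the control diet and 331 and 319 CPM on the TJ-41 diet. The TJ-41-fed PPE/LPS libraries were thus the 2 lowest of the 8, and the pair on the control diet enclosed the 4 PBS libraries. The log2 fold change of PPE/LPS against PBS was 0.12 on the control diet (SE 0.18), or -0.05 without the library that stood apart, and -0.73 on the TJ-41 diet (SE 0.18, adjusted p = 0.392 from edgeR). Its averaged value was -0.30 (SE 0.12, adjusted p = 0.443).

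Muc5b is the main gel-forming mucin of the healthy mouse airway and Muc5ac the mucin that rises in mucous metaplasia. The genes are neighbours on chromosome 7 of GRCm38, on the plus strand, with Muc5ac from 141788972 to 141819231 and Muc5b from 141839070 to 141873084. Muc5b had 9.31 and 74.1 CPM in PBS-treated mice on the control diet and 69.6 and 64.2 CPM on the TJ-41 diet. With PPE and LPS it had 86.0 and 92.1 CPM on the control diet and 72.0 and 84.2 CPM on the TJ-41 diet. All libraries but 1 lay within 64.2 to 92.1 CPM, and the first PBS library on the control diet stood far below. The averaged log2 fold change was 0.66 (SE 0.46, adjusted p = 0.644 from edgeR). Without that low library it was 0.25 (adjusted p = 0.582), and without its replicate, so that the low library stood alone for its group, edgeR called the gene at 1.74 (adjusted p = 0.0073).

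Muc5ac was low in the same library, with 3 counts there or 0.157 CPM, which is at the detection limit. The other PBS libraries had 2.28 CPM on the control diet and 2.56 and 2.59 CPM on the TJ-41 diet. PPE/LPS mice had 3.96 and 5.95 CPM on the control diet and 3.03 and 4.60 CPM on the TJ-41 diet. No PBS library reached the lowest PPE/LPS library, although the gap between 2.59 and 3.03 CPM was small. The averaged log2 fold change of Muc5ac was 1.29 (SE 0.51, adjusted p = 0.425 from edgeR). Without the low library it was 0.84, and without the replicate of that library 2.75.

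Agr2 encodes a disulfide isomerase of the endoplasmic reticulum that mucin-producing cells need to fold mucins. Its level was 0.837 and 0.986 CPM in PBS-treated mice on the control diet, 0.666 and 0.487 CPM on the TJ-41 diet, 1.10 and 2.62 CPM in PPE/LPS mice on the control diet, and 0.678 and 0.716 CPM on the TJ-41 diet. Libraries of PPE/LPS mice were higher within each diet but overlapped across diets. On the TJ-41 diet the nearest PBS and PPE/LPS libraries had equal raw counts, 13 each. The averaged log2 fold change was 0.64 (SE 0.36, adjusted p = 0.579 from edgeR). Without the library that stood apart, which had the 2.62 CPM, it was 0.27 (adjusted p = 0.832), and without its replicate 0.89 (adjusted p = 0.0606).

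Bpifa1 and Bpifb1 encode secreted proteins of the BPI fold family, which bind lipids and bacterial surfaces in the upper and large airways, and they are neighbours on chromosome 2. Bpifa1 had 22.0 and 91.8 CPM in PBS-treated mice on the control diet and 53.8 and 10.5 CPM on the TJ-41 diet, against 38.1 to 72.9 CPM in the 4 PPE/LPS libraries. The highest and the lowest library of Bpifa1 were thus both from PBS-treated mice, and its averaged log2 fold change was 0.24 (SE 0.51, 95% confidence interval -0.91 to 1.39). Bpifb1 ranged from 13 to 34.4 CPM in PBS libraries and from 17.6 to 64.4 CPM in PPE/LPS libraries, with an averaged log2 fold change of 0.60 (SE 0.44). Without the library that stood apart the value of Bpifb1 was -0.01.

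Counted by overlap of the libraries alone, 3 of the 10 members had all 4 PPE/LPS libraries above all 4 PBS libraries, which held for 3.35% of all genes tested, and 0 members had them all below. On the control diet both PPE/LPS libraries exceeded both PBS libraries for 5 members, Scgb3a1, Muc5b, Muc5ac, Reg3g and Agr2, against 13.6% of genes. On the TJ-41 diet it was also 5 members, those named for the control diet, against 28.5% of genes. For Agr2 the nearest PBS and PPE/LPS libraries on that diet had 13 counts each, so only the scaling separated them.

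**Figure D2:**
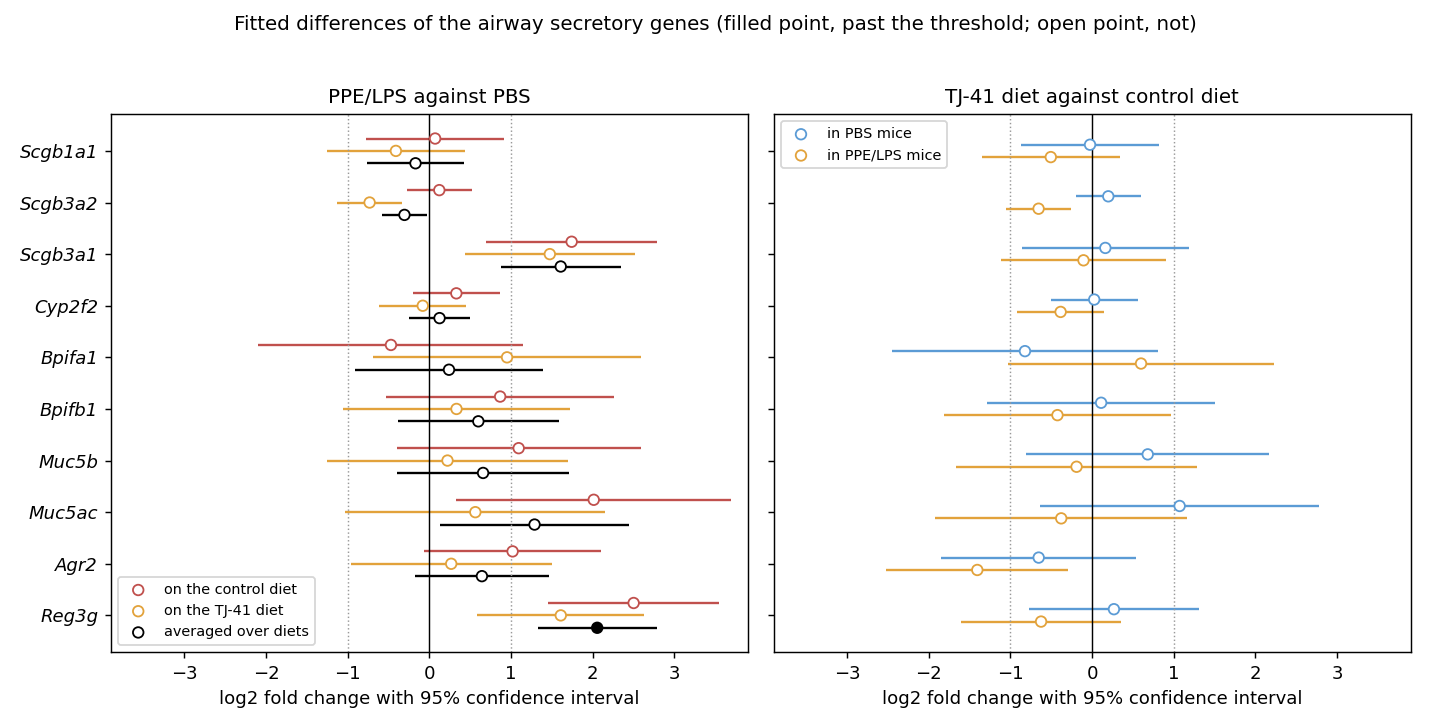
Log2 fold change of each gene with its 95% confidence interval from edgeR for PPE/LPS against PBS (left) and for TJ-41 against control diet (right), with dotted lines at -1 and 1. The 1 filled point is the averaged value of Reg3g at 2.06, and every other value, open, missed the threshold.

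The second comparison asked what the TJ-41 diet did to these genes. In PPE/LPS mice 9 of the 10 members were lower on the TJ-41 diet and Bpifa1 was higher, with a median log2 fold change of -0.40, against -0.01 over all genes tested. Without the library that stood apart 5 members were higher and 5 lower, with a median of 0.04. No member was called by edgeR or DESeq2, against 0.00487% of all genes, or 1 gene, in edgeR, and 14 genes in DESeq2. An unadjusted p under 0.05 was found for 2 members, Scgb3a2 and Agr2, beside 842 of all genes. Both TJ-41 libraries were below both control diet libraries for 3 members, Scgb3a2, Muc5b and Agr2, which held for 14.9% of genes. Other lists of genes differed in the same comparison. Of 20 ciliated cell markers 16 were lower and 4 higher, with a median of -0.35. Of 21 other club and secretory cell genes 20 were lower and 1 higher, with a median of -0.37. Of 8 alveolar type II markers 6 were higher and 2 lower, with a median of 0.26. None in these 3 lists was called by edgeR or DESeq2. All 6 heart muscle markers were lower on the TJ-41 diet, with a median log2 fold change of -1.24 (-1.01 without the library that stood apart) and all 6 at an unadjusted p under 0.05, and DESeq2 called Tnnt2, cardiac troponin T. Their summed level was 414 and 510 CPM on the control diet and 237 and 184 CPM on the TJ-41 diet. All 7 neutrophil markers tested were higher, with a median of 0.82 and 1 at an unadjusted p under 0.05, and without the library that stood apart 7 of 8 were higher, with a median of 0.21. Their part in the members' values was not tested.

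The largest of these differences was in Agr2, at -1.40 (SE 0.49, adjusted p = 0.991 from edgeR), where the control diet libraries had 1.10 and 2.62 CPM and the TJ-41 libraries 0.678 and 0.716 CPM. For Scgb3a2 the difference was -0.65 (SE 0.18, adjusted p = 0.991, same test), and for Reg3g it was -0.62 (SE 0.43, adjusted p = 0.991). Scgb1a1 differed by -0.50, Bpifb1 by -0.42, Cyp2f2 by -0.38, Muc5ac by -0.38, Muc5b by -0.19 and Scgb3a1 by -0.10 on the log2 scale, while Bpifa1 differed by 0.60. These values leaned on 1 library. Without the second library of the control diet group, the differences of Scgb1a1 (0.30), Scgb3a1 (0.62), Bpifb1 (0.80) and Reg3g (0.14) were above 0, those of Cyp2f2 and Muc5ac were -0.05 and -0.05, Muc5b was at -0.14, Agr2 was at -0.65 and Scgb3a2 was at -0.48, with no member called. Without the first library of that group instead, edgeR called Agr2 at -1.90 (adjusted p = 0.0309) and Scgb1a1 at -1.02 (adjusted p = 0.0293).

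In PBS-treated mice 7 members were higher and 3 lower on the TJ-41 diet, with a median log2 fold change of 0.14. The count of members called was 0 in edgeR and in DESeq2, with 0 members at an unadjusted p under 0.05, and the share of all genes called was 0% in edgeR, where 336 genes had an unadjusted p under 0.05 and DESeq2 called 10. Muc5ac differed by 1.07 (SE 0.76), with its level of 0.157 CPM in the first control diet library beside 2.28 to 2.59 CPM in the other 3. Without that low library its difference was 0.17, and without the second control diet library 3.98. Agr2 differed by -0.65 (SE 0.53) and Scgb3a2 by 0.20 (SE 0.18). Averaged over PBS and PPE/LPS mice, the diet comparison called 0% of all genes in edgeR (509 at an unadjusted p under 0.05, and 5 called by DESeq2) and 0 members, with Agr2 the 1 member at an unadjusted p under 0.05. The difference between the diet effects in PPE/LPS mice and in PBS-treated mice called 0% of all genes as well (672 at an unadjusted p under 0.05, and 17 called by DESeq2). Here 0 members were called, and Scgb3a2 was the 1 member with an unadjusted p under 0.05.

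Several members had their highest and lowest values in the same libraries. For 5 members, Scgb3a1, Bpifa1, Bpifb1, Muc5b and Reg3g, the first library of PBS-treated mice on the control diet and the second on the TJ-41 diet were the 2 lowest of the 8, which held for 2.46% of the genes tested. The second PPE/LPS library on the control diet was the highest for all members but Bpifa1, which held for 29.2% of genes. Bpifa1 differed most between the libraries of a group, by 2.06 and -2.34 on the log2 scale in the PBS groups on the control and the TJ-41 diet, apart from the mucins on the control diet at 2.98 for Muc5b and 3.19 for Muc5ac. In the PPE/LPS control diet group the differences are given from the shortest exons, 476 bases, to the longest, 14964 bases. They were 1.32 for Scgb1a1, 1.20 for Scgb3a1, 0.34 for Scgb3a2, 1.18 for Agr2 and -0.21 for Bpifa1. The longer members had 0.60 for Cyp2f2, 1.25 for Reg3g, 1.87 for Bpifb1, 0.57 for Muc5ac and 0.10 for Muc5b. The part of gene length in these differences was not tested member by member. With each library corrected for length and GC content, the averaged value of Reg3g was 2.13 (adjusted p = 0.0470 from edgeR).

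**Figure D3:**
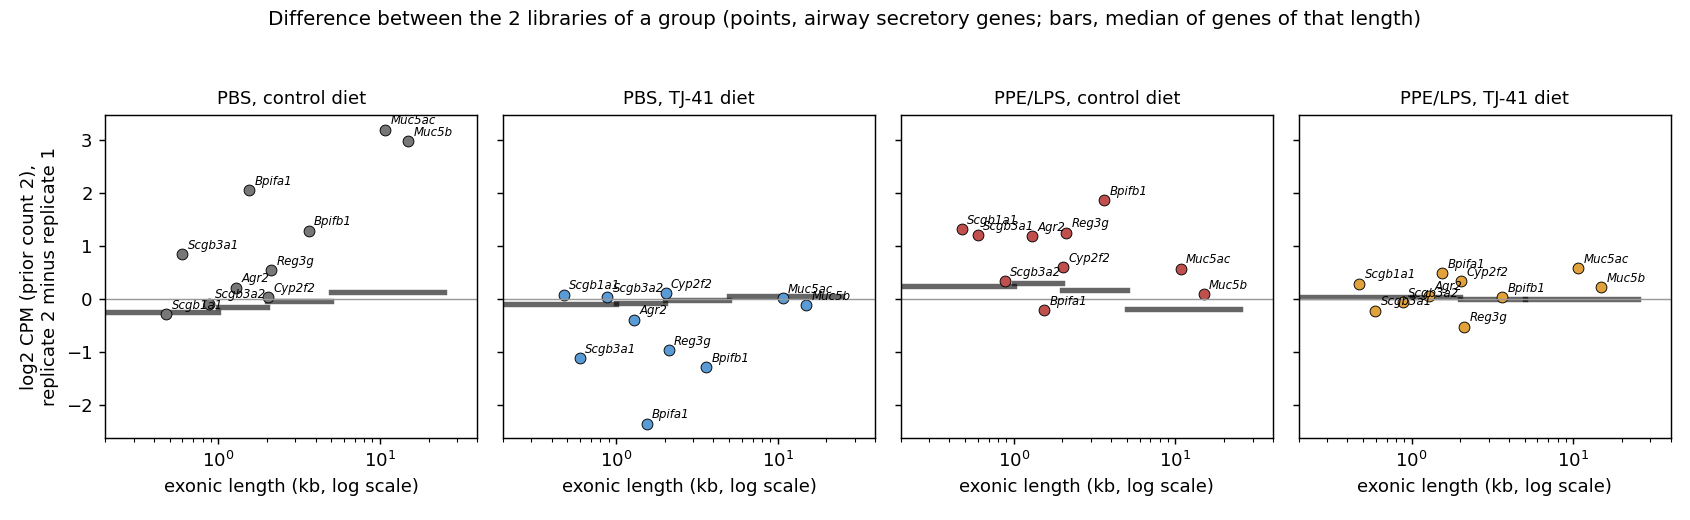
Difference in log2 CPM (prior count 2) between the libraries of each group against exonic length on a log axis, with points for the 10 genes and bars for the median of the tested genes with a mean log2 CPM above 0 in 4 length classes. In the PPE/LPS control diet panel the bars run from 0.25 for genes under 1 kb to -0.19 for genes over 5 kb, and the PBS control diet panel shows Muc5ac and Muc5b near 3.

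Ciliated cells share the airway epithelium with the cells that express the members. Of 20 ciliated cell markers tested 19 were higher in PPE/LPS mice on the control diet, with a median log2 fold change of 0.56, and on the TJ-41 diet 5 were higher and 15 lower, with a median of -0.17. On the control diet 14 of them had an unadjusted p under 0.05 and on the TJ-41 diet 1, and 0 were called by edgeR or DESeq2 on either diet. Their summed level was 1717 to 2241 CPM in PBS libraries and 1895 to 2269 CPM in PPE/LPS libraries, lowest in the first PBS library on the control diet, where Muc5b and Muc5ac were also low. Markers that would come with trachea or large bronchi were scarce. Of the 8 basal cell markers, 5 stayed under 1 CPM in every library. The sum of the 8 ran from 3.24 CPM in the first PBS library on the control diet to 5.90 CPM in the library that stood apart. All 6 squamous markers stayed under 1 CPM, with Sprr3 and Krtdap at 0 counts, and 9 of 11 cartilage markers stayed under 1 CPM, with Col9a1 at 0. The cartilage sum was 10.1 to 21.1 CPM. It was highest in the library that stood apart, as was the squamous sum, at 1.18 CPM. In the library that stood apart the summed alveolar type II markers were highest, at 37582 CPM against 18497 to 28169 CPM in the others, and the summed neutrophil markers were lowest, at 73.8 CPM against 154 to 370 CPM. The plasma cell markers were higher in PPE/LPS mice for 8 of 8 genes, with a median averaged log2 fold change of 1.16, and their sum was 598 to 998 CPM in PBS libraries and 1143 to 3046 CPM in PPE/LPS libraries, without overlap. Called over both diets were the immunoglobulin heavy chain gene Ighg1, at 5.94 (SE 0.48, adjusted p = 0.0011 from edgeR), and the joining chain gene Jchain, at 2.64 (SE 0.32, adjusted p = 0.0097), whose call was lost without any 1 PBS library (adjusted p up to 0.116). The 6 heart muscle markers had a median of 0.62 on the control diet and -0.49 on the TJ-41 diet, and the 6 alveolar type I markers were higher for 3 and lower for 3 over both diets, with a median of 0.03. The part of these markers in the members' values was not tested.

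Among other genes of club and secretory cells, 1 of 21 tested was called, and it rose. This was Cyp2a5, a P450 enzyme related to the nicotine-oxidizing enzyme of human liver, at 17.5 to 24.3 CPM in PBS libraries and 52.0 to 155 CPM in PPE/LPS libraries, with an averaged log2 fold change of 2.08 (SE 0.25, adjusted p = 0.00996 from edgeR). Leaving out any 1 of the 4 PBS libraries raised that adjusted p to between 0.0958 and 0.112, with a log2 fold change of 2.03 to 2.14. Of the 50-base sequences of Cyp2a5, 37.0% also occur in other genes, mainly Cyp2a4, so its counts are uncertain. Of the 21 genes 10 were higher and 11 lower, with a median near 0. The most abundant of them were Cbr2, a carbonyl reductase, at 0.70 (SE 0.18, adjusted p = 0.188), Aldh1a1, a retinal dehydrogenase, at -0.17 (SE 0.16) and Ces1d, a carboxylesterase, at -0.07 (SE 0.12). Tff2, a trefoil peptide secreted with mucus, had 2.20 to 4.66 CPM in PBS libraries and 7.72 to 18.9 CPM in PPE/LPS libraries, at 1.64 (SE 0.30, adjusted p = 0.0618 from edgeR), and was called by DESeq2.

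For the goblet cell programme and other airway mucins, 9 of 15 genes tested were higher and 6 lower over both diets, with a median log2 fold change of 0.32, or 0.07 without the library that stood apart. Over both diets none was called by edgeR or DESeq2, and 4 had an unadjusted p under 0.05 in edgeR. On the control diet alone DESeq2 called 1 of the 15, Clca1. The transmembrane mucin Muc1 had 180 to 235 CPM in PBS libraries and 240 to 365 CPM in PPE/LPS libraries, with an averaged value of 0.63 (SE 0.15, adjusted p = 0.144 from edgeR). Notch2, a receptor that directs secretory cell fate, stood at -0.05 (SE 0.14), and Il4ra, the receptor chain for the cytokines that drive mucous cells, at -0.30 (SE 0.11). The secreted goblet cell protein gene Clca1, named after its values were seen, had 1604 counts or 82.2 CPM in the library that stood apart and at most 24 counts or 1.3 CPM in any other. That library also held the highest level of every mucin or goblet member, 2.62 CPM for Agr2, 5.95 CPM for Muc5ac and 92.1 CPM for Muc5b.

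Of 15 epithelial antimicrobial genes tested, 1 was called over both diets, the chemokine gene Ccl20, which had 0.628 to 1.62 CPM in PBS libraries and 2.30 to 9.02 CPM in PPE/LPS libraries, with an averaged log2 fold change of 2.03 (SE 0.31, adjusted p = 0.0272 from edgeR). On the control diet alone it was at 3.18 (SE 0.45, adjusted p = 0.0465). That call was lost in 10 of 16 alternative fits, among them the replicate block (adjusted p = 0.0663), the length and GC correction (0.0793), the fit of only the 2 groups compared (0.134) and 6 of the 8 fits that left out a library (adjusted p up to 0.476). Leaving out any 1 PBS library raised the averaged adjusted p of Ccl20 to between 0.140 and 0.205, and leaving out the first library of the TJ-41-fed PPE/LPS mice raised it to 0.111. In total 11 of the 15 were higher and 4 lower, with a median of 0.34, or 0.098 without the library that stood apart. Over both diets DESeq2 called 3 of the 15, Ccl20, Lcn2 and the chemokine gene Cxcl1, and on the control diet alone 2, Ccl20 and Pigr. Lcn2, the iron-siderophore binding protein lipocalin 2, had 92.4 to 140 CPM in PBS libraries and 193 to 890 CPM in PPE/LPS libraries, at 1.75 (SE 0.40, adjusted p = 0.126). Lyz1, a lysozyme, stood at 0.02 (SE 0.31) and Wfdc2, a whey acidic protein family member of airway secretions, at 0.34 (SE 0.22). Among 16 relatives of the BPI fold and secretoglobin members only 3 passed the filter on low counts, Lbp, Bpifb5 and Scgb1c1, and none was called by edgeR or DESeq2, with 1 at an unadjusted p under 0.05.

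**Figure D4:**
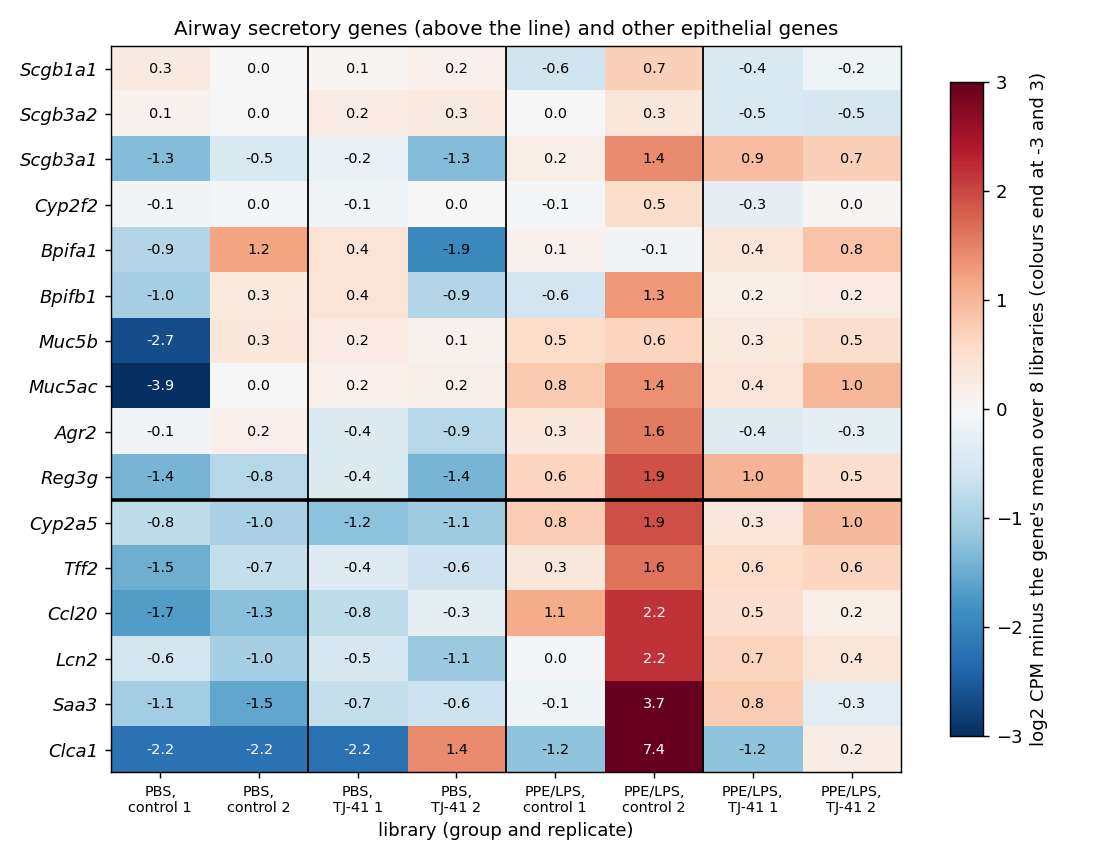
Log2 CPM of each gene in each library minus the mean of that gene over the 8 libraries, for the 10 genes above the line and 6 other epithelial genes below it that were chosen for display after their values were seen. Red is above and blue below the gene's mean. The column of the second PPE/LPS library on the control diet is red for all but Bpifa1, and Muc5b and Muc5ac are darkest blue in the first PBS library on the control diet.

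The genes nearest to 3 of the members across the 8 libraries were found by the root mean square (RMS) difference of log2 CPM (prior count 2) after each gene was centred on its own mean. The nearest gene to Reg3g among all genes tested was Scgb3a1, at an RMS difference of 0.29 log2 units, followed by Krt83 (0.31), Tff2 (0.36), Cd177 (0.38) and Slc5a1 (0.41). Tff2 and Cd177, a neutrophil surface protein, both had all PPE/LPS libraries above all PBS libraries, as Reg3g did. Both were chosen for their likeness to Reg3g over these same libraries. Of the 7 neutrophil markers tested, 2 were higher and 5 lower in PPE/LPS mice over both diets, with a median log2 fold change of -0.11. Muc5b was nearest to Serpina9 (0.17), Wdr95 (0.31), Otx1 (0.32), Gm26614 (0.37) and Muc5ac (0.38), genes that share its low value in the first PBS library on the control diet. Scgb1a1 was nearest to Dhrs3 (0.10), Prss23 (0.12), Serf1 (0.12), 6330403K07Rik (0.13) and Wnt4 (0.14). These distances run over 8 libraries that also share depth, RNA source and, in pairs, a group.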

How the data were processed

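RNA from mouse lung was measured in 8 libraries, 2 in each of 4 groups assigned from the sample labels. The authors deposited raw counts of reads for each Ensembl gene. The submitters' processing notes name HISAT2, edgeR and mm10, and the study's methods name CLC Genomics Workbench. The counter, annotation release and strand setting are not given in the sources used here. Gene names and coordinates came from GENCODE M21, and promoter windows from RefSeq (GRCm38.p6). Counts were kept by filterByExpr (minimum count 10, minimum total 15), scaled by TMM and fitted over all 4 groups with edgeR 4.0.16 in R 4.3.3, with a quasi-likelihood test on 4 residual degrees of freedom. Each SE was the log2 fold change divided by the root of its F value. The steps were tested on simulated counts with 200 changed genes.

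Replicate numbers did not pair libraries: the correlations of replicate differences between groups ran from -0.234 to 0.108, so the replicate block was an alternative. Others were DESeq2 1.42.0, RLE factors, library size alone, filters on low counts, only the 2 groups compared, the false discovery rate alone and leaving out each library. A loess correction for length and GC content (span 0.5) was chosen after seeing the data. The members, the gene lists (other club and secretory cell genes, goblet programme and other mucins, epithelial antimicrobial genes, BPI fold and secretoglobin relatives, and markers of ciliated, basal, squamous, cartilage, alveolar type I and II, neutrophil, plasma and heart muscle cells) and the tests were chosen with earlier results of these data known. Named are all members, each list's called genes and up to 3 most abundant genes, and the 5 genes nearest to Scgb1a1, Muc5b and Reg3g. Depth limits Muc5ac and Agr2, with 3 and 9 counts in their lowest library.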

Additional observations from a re-analysis of the deposited data

Results flagged for a closer look

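Scgb3a2 was the 1 member whose libraries did not overlap between the diets in either arm and moved in opposite directions in the 2 arms. Both TJ-41 libraries were higher than both control diet libraries in PBS-treated mice, 533 and 545 CPM against 483 and 456 CPM, and both were lower in PPE/LPS mice, 331 and 319 CPM against 452 and 571 CPM. The difference between the diet effects was -0.854 on the log2 scale (SE 0.25, unadjusted p = 0.0073, adjusted p = 0.999 from edgeR), which failed the correction. Without the second library of PPE/LPS mice on the control diet it was -0.66, and without the first it was -1.002. By fitted value alone, 7 of the 10 members were higher on the TJ-41 diet in PBS-treated mice and 9 were lower in PPE/LPS mice. Opposite signs were thus not particular to Scgb3a2. The share of all genes tested with its pattern of libraries was not counted.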

How the results depend on the processing

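Of 116 alternative counts of members called, 97 were within 1.5 times the count reported. Log2 fold changes were recomputed for all members in the comparisons of PPE/LPS with PBS and of the diets in PPE/LPS mice, and otherwise for members whose value is given (Scgb3a2, Muc5ac and Agr2 for the diet in PBS-treated mice, and the difference between diet effects of Scgb3a2). Of these 688 alternative values, 640 kept their direction and their side of the threshold and 21 changed sign. For PPE and LPS against PBS averaged over diets, the count of members called was 1 as reported, 2 with DESeq2, 2 with all genes of at least 1 count and 0 with the replicate block. It was 0 to 2 when single libraries were left out, with Reg3g lost without either PBS library of either diet or the first TJ-41 library of PPE/LPS mice, and Muc5b called in its place without the second PBS library on the control diet. On the control diet it was 0 as reported, 2 with DESeq2, 2 with all genes of at least 1 count and 0 to 3 without single libraries (3 without the first library of PPE/LPS mice on that diet). On the TJ-41 diet it was 0 as reported, 2 with DESeq2, 2 in a fit of only the 2 groups compared and 0 to 1 without single libraries. For the TJ-41 diet it was 0 to 2 in PPE/LPS mice and 0 to 1 averaged over both arms without single libraries, with calls only when the first library of PPE/LPS mice on the control diet was left out. The replicate block changed no other call of a member.

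Some signs changed when single libraries were left out. Averaged over diets the range was -0.56 to 0.089 for Scgb1a1, -0.033 to 0.26 for Cyp2f2, -0.14 to 1.05 for Bpifa1 and -0.0069 to 0.996 for Bpifb1. On the control diet it was -0.73 to 0.58 for Scgb1a1, -0.054 to 0.28 for Scgb3a2, -1.16 to 0.90 for Bpifa1 and -0.35 to 1.65 for Bpifb1, and on the TJ-41 diet -0.25 to 0.084 for Cyp2f2 and -0.17 to 1.12 for Bpifb1. For the TJ-41 diet in PPE/LPS mice it was -1.02 to 0.30 for Scgb1a1, -0.58 to 0.62 for Scgb3a1, -1.07 to 0.80 for Bpifb1 and -1.12 to 0.14 for Reg3g. With other scalings Scgb1a1 on the control diet was at -0.0039 with library size alone, -0.021 with the replicate block and -0.16 with the length and GC correction, and averaged Cyp2f2 was at -0.0026 with that correction. The cause was not tested.

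The number of genes called moved more than the members. DESeq2 called 249 genes averaged over diets against 91, 174 against 25 on the control diet, 125 against 16 on the TJ-41 diet and 14 against 1 for the TJ-41 diet in PPE/LPS mice. All genes of at least 1 count gave 278, 147, 89 and 2 in the same comparisons, and only the 2 groups compared gave 248 on the TJ-41 diet, 0 for the diet in PPE/LPS mice and 5 in PBS-treated mice. The length and GC correction gave 27 on the TJ-41 diet, and the replicate block gave 0 for the diet in PPE/LPS mice. Leaving out single libraries gave 15 to 873 averaged over diets, 3 to 1343 on the control diet, 2 to 168 on the TJ-41 diet and 0 to 728 for the diet in PPE/LPS mice, each highest without the first library of PPE/LPS mice on the control diet except on the TJ-41 diet, where the second gave 168 and the first 165.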
